A study of Mus musculus with 12 samples.

Results

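The miRNAs described here belong by name to miR-297, miR-466, miR-467 and miR-669 and come mostly from a cluster of hairpins inside a gene, Sfmbt2. They were found by name: every row of the deposited table with exactly one of these numbers was taken, whatever its letter, copy or arm. This gave 79 of the 1042 miRNA rows. There were 6 rows of miR-297, 30 of miR-466, 13 of miR-467 and 30 of miR-669, with 33 named for the 5p arm of the hairpin, 35 for the 3p arm and 11 for neither. Small RNA was sequenced from 5 kinds of mouse cells. The mouse embryonic fibroblasts (MEFs, 3 libraries) were C57B6/129SvJae F1. The embryonic stem cells (ESCs, 3 libraries) were of the line E14 on a 129/ola background. The induced pluripotent stem cells (iPSCs, 2 libraries) were made from such MEFs with a doxycycline-inducible lentivirus that carried the factors c-Myc, Klf4, Sox2 and Oct4, the NT-ESCs (2 libraries) by transfer of MEF nuclei, and the NT-iPSCs (2 libraries) by nuclear transfer with iPSCs as donors. All reprogrammed cells were therefore C57B6/129SvJae F1, and all pluripotent cells, ESCs included, grew with leukaemia inhibitory factor on irradiated MEFs. The replicates are batches of RNA from 1 line of each kind, so that the p-values below measure the spread between batches. No group was an independent set of lines. The strain of the reprogrammed cells cannot be told apart from reprogramming in any comparison with the E14 line.

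Libraries held 4863365 to 8608689 miRNA reads, recovered from the deposited values. The 10 fibroblast miRNAs used as markers made up 8.74% to 11.6% of the miRNA reads in MEFs, 5.43% to 6.27% in ESCs, 1.52% to 1.68% in iPSCs, 3.67% to 3.74% in NT-ESCs and 3.69% to 4.32% in NT-iPSCs, and none of them was at 0 in any group. The 24 pluripotent markers of the miR-290 and miR-302 clusters made up at most 0.00129% in MEFs, with 13 of them at 0 in every MEF library, 10.2% to 12.2% in ESCs and 13.5% to 20.8% in the reprogrammed libraries. The 6 reprogrammed libraries were set apart from the MEF and ESC libraries by the study's own read-quality statistics, such as the share of reads without a 3′ adaptor. Library handling and cell class cannot be told apart in comparisons between these sets. In such bulk libraries, fewer cells of a type and less RNA per cell cannot be told apart either.

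A miRNA hairpin is cut by Drosha and Dicer into a short duplex, of which the strand from the 5p or the 3p arm can be loaded into an Argonaute protein. The loaded strand pairs with target mRNAs mainly through its seed, bases 2 to 8. Sfmbt2 encodes a Polycomb group protein, is imprinted with expression from the paternal allele in early mouse embryos and the extraembryonic lineages, and carries in one of its introns a large rodent-specific miRNA cluster of repeated hairpins, which takes part in placental development. GENCODE M21 (GRCm38) places Sfmbt2 at chr2:10370510-10595253 on the plus strand. It lists 81 hairpins with these numbers, and 71 of them lie in intron 10 of the Sfmbt2 transcript with the most exons (23 exons), on the same strand, from 10466663 to 10518279. The 71 hairpins were packed into 51.6 kb with a median gap of 209 bases. They comprised 5 of miR-297, 23 of miR-466, 14 of miR-467 and 29 of miR-669. The remaining 10 are scattered over other chromosomes. By name, 66 rows of the table have hairpins in Sfmbt2 only, 5 have copies both there and elsewhere, and 8 (miR-466i-5p, miR-466i-3p, miR-466j, miR-466k, miR-467f, miR-467g, miR-467h and miR-669n) have them only elsewhere. The submitters' processing notes name the build mm8, so these positions were used for the arrangement of the hairpins only.

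Mature sequences were found by name in the RefSeq table (GRCm38.p6) for 7 of the 79 rows, all of them among those with hairpins outside Sfmbt2. They are shown because they are the sequences at hand and hold dinucleotide repeats. The capitals mark the seed, bases 2 to 8. No 2 of the 7 share a seed.
miR-466i-3p: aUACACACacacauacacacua
miR-467f: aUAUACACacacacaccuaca
miR-467g: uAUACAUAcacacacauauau
miR-466j: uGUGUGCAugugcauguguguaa
miR-466k: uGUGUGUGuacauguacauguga
miR-467h: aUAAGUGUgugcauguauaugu
miR-669n: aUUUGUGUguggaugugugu
The first 3 are rich in AC repeats, and the other 4 in UG repeats. All 7 hold ACACAC or GUGUGU, letters found in 28 of 1674 distinct mature mouse sequences of the table (1.67%, searched on the mature strand only). A purine followed a pyrimidine, or the reverse, at 78.9% of the steps along miR-669n, at 100% along miR-467g and between these shares in the other 5, against a median of 45% over all mature sequences. Mir466i lies at chr13:17747473-17747593 in an intron of Cdk13, on the opposite strand. Mir466k lies at chr3:85467377-85467498, opposite a gene model named Gm37240. Mir669n lies at chr3:115979902-115979955, opposite Slc30a7 in an intron.

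Because the hairpins of the cluster share a host gene, the bases before the annotated starts of Sfmbt2 are shown as well. The RefSeq promoter table (GRCm38.p6) has 2 starts for it. The 250 bases before each are printed on the plus strand with each CG in capitals.
Sfmbt2, chr2:10370201-10370450: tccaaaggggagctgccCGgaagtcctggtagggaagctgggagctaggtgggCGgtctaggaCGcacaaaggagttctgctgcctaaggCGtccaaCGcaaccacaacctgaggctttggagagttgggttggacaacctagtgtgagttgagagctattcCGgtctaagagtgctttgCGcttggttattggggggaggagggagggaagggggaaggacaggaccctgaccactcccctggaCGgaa
Sfmbt2, chr2:10372186-10372435: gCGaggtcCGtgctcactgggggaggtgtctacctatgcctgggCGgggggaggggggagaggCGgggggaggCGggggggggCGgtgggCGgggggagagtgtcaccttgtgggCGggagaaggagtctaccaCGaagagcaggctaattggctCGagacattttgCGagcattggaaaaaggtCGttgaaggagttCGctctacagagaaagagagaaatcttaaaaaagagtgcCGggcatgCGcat
The first window holds 8 CG and the second 15, against a median of 6 over 32851 windows of the same length. As many CG or more stood in 43.0% of the windows for the first and in 27.3% for the second. No methylation or start site usage was measured here.

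The rows do not hold 79 independent measurements. Values were identical in every library within 7 sets that together hold 15 rows: miR-297a-3p with miR-297b-3p and miR-297c-3p, miR-466b-3p with miR-466c-3p, miR-466b-5p with miR-466o-5p, miR-466d-5p with miR-466n-5p, miR-669a-3p with miR-669o-3p, miR-669a-5p with miR-669p-5p, and miR-669d-3p with miR-669d-2-3p. This left 71 distinct rows. Reads of miR-466b-3p, miR-466e-3p and miR-466p-3p also agreed within 5% in every library, as did those of miR-467a-5p with miR-467b-5p and of miR-467a-3p with miR-467d-3p, which left 67. Such rows may count the same reads, and their levels are uncertain as levels of a single hairpin. Reads were found in every library for 51 rows. In MEFs 29 rows had at most 3 reads in each library and 16 had none, and in ESCs these numbers were 17 and 7.

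The reads on the 71 distinct rows made up a very different share of all miRNA reads in the 5 kinds of cells. The share was 0.0465%, 0.0549% and 0.0598% in the MEF libraries and 0.636%, 0.507% and 0.516% in the ESC libraries. The iPSC libraries had 9.71% and 7.23%, the NT-ESC libraries 4.34% and 5.02%, and the NT-iPSC libraries 2.47% and 2.72%. No library of one kind overlapped with a library of another, and the order was iPSCs, NT-ESCs, NT-iPSCs, ESCs and MEFs. The mean share was 10.3 times higher in ESCs than in MEFs, and 15.3, 8.46 and 4.69 times higher in iPSCs, NT-ESCs and NT-iPSCs than in ESCs. These shares are given as descriptions, with no test. The total of miRNA reads sums all 1042 rows, identical rows included, while the family counts identical rows once, so that the shares are approximate. Counted against the clean reads in place of the miRNA reads, the mean share was 3.68% for iPSCs, 2.27% for NT-ESCs, 1.35% for NT-iPSCs, 0.289% for ESCs and 0.0415% for MEFs.

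**Figure D1:**
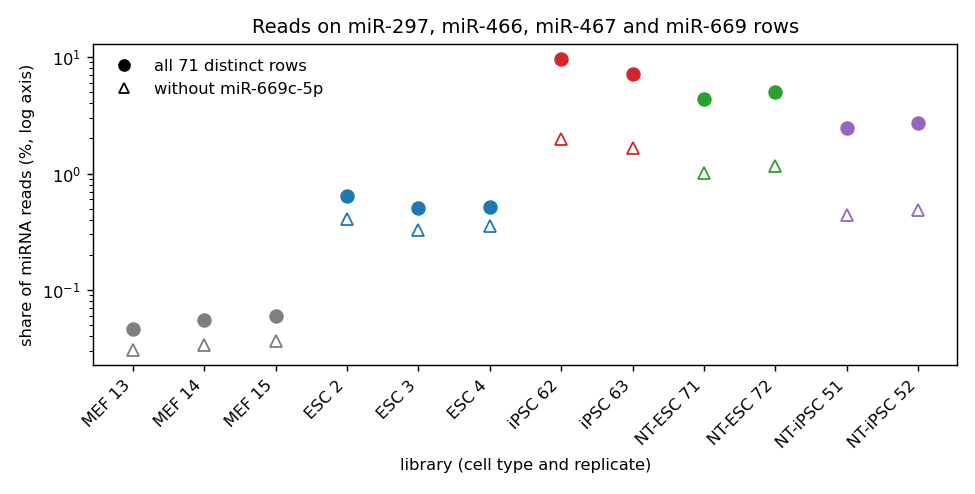
Share of all miRNA reads (%, log axis) on the 71 distinct rows of miR-297, miR-466, miR-467 and miR-669 (filled circles) and on the same rows without miR-669c-5p (open triangles), 1 point per library. The MEF libraries lie lowest at 0.0465% to 0.0598%, the iPSC libraries highest at 7.23% and 9.71%, and the gap between circles and triangles is widest in the 6 reprogrammed libraries.

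A single row, miR-669c-5p, carried most of these reads in reprogrammed cells. It took 31.2% to 38.8% of the reads of the family in the MEF and ESC libraries and 76.7% to 82.3% in the reprogrammed libraries. The normalized reads (reads divided by the library's size factor) of miR-669c-5p were 1827, 2049 and 2348 in MEFs, 12682, 10251 and 8756 in ESCs, 300079 and 248737 in iPSCs, 174426 and 210267 in NT-ESCs, and 124300 and 134407 in NT-iPSCs. All 5 kinds of cells were separated, with iPSCs at the top. Among all 1042 rows it ranked between 135 and 150 in MEFs, between 57 and 75 in ESCs, 1 and 2 in iPSCs, 7 in both NT-ESC libraries, and 16 and 12 in NT-iPSCs. The next family member in the table, miR-467a-5p, reached rank 58 at best. Without miR-669c-5p the mean share of the family was 0.0335% ± 0.00317 for the 3 MEF libraries (mean and SD), 0.363% ± 0.0384 for the 3 of ESCs, 1.82% ± 0.239 for the 2 of iPSCs, 1.09% ± 0.108 for the 2 of NT-ESCs and 0.461% ± 0.0297 for the 2 of NT-iPSCs. The order of the 5 kinds stayed as it was. The ratio of iPSCs to ESCs was then 5.02, and that of NT-iPSCs to ESCs 1.27. By number, the order held for miR-467 and for miR-669 with miR-669c-5p included. It did not for miR-466, with a mean share of 0.121% in NT-iPSCs and 0.165% in ESCs, or for miR-297, with 0.0197% and 0.0218%.

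For the comparisons, the deposited log2 values were tested with limma across all 732 miRNAs that had at least 10 reads in at least 2 libraries, with Benjamini-Hochberg adjustment and a threshold of 0.05. Differences below are on the scale of these variance-stabilized log2 values, which compress the lowest counts. Of the 79 rows, 73 were tested. The other 6 (miR-466j, miR-466l-5p, miR-467f, miR-467g, miR-467h and miR-669g) had at most 16 reads in any library, and miR-467g had a single read in all. The comparisons with ESCs share the ESC libraries, and those with MEFs the MEF libraries, so that they are not independent of each other.

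Most rows of the family were lower in MEFs than in ESCs. Of 73 rows, 64 were lower in MEFs, 1 was higher and 8 did not pass the test, where 79% of all tested miRNAs were called, 39.9% lower and 39.1% higher in MEFs. The median difference was -2.51 over the family and 0.00 over all tested miRNAs. All 6 rows of miR-297 and all 28 tested rows of miR-466 were lower, as were 9 of 10 rows of miR-467 and 21 of 29 of miR-669. The 5p rows were lower in 32 of 32 cases with a median of -2.99, beside 41.4% of all 5p rows, and the 3p rows in 29 of 35 with a median of -2.09, beside 37.8% of all 3p rows. The rows that did not pass had at most 2 reads in any library of either kind. Rows with few or no reads in MEFs could only be lower there or near the floor in both kinds. Of the 33 rows that reached 10 reads in 2 or more MEF libraries, 33 were lower, with a median of -2.70. Of the 4 tested rows with hairpins only outside Sfmbt2, 3 were lower, with a median of -2.91.

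The clearest of these were 5p rows. miR-297a-5p had 118.1, 114.8 and 112.1 normalized reads in MEFs against 879.5, 852.8 and 1115 in ESCs, a difference of -3.03 (SE 0.164, limma adjusted p = 2.17e-08). miR-669o-5p had 11.8, 15.9 and 10.1 in MEFs against 182.7, 190.2 and 132.1 in ESCs, with a difference of -3.68 (SE 0.215, limma adjusted p = 3.84e-08). miR-467a-5p had 417.3, 372.3 and 367.9 in MEFs and 2490, 2064 and 2046 in ESCs, a difference of -2.51 (SE 0.151, limma adjusted p = 4.69e-08). The groups did not overlap in any of these 3 rows. The one row called higher in MEFs, miR-669l-3p, rested on 1, 1 and 0 reads in MEFs and 0 in every ESC library, so that both groups were below the floor of 3 reads and no fold is given. Its call (limma adjusted p = 0.0237) was lost under 5 of the alternatives.

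The MEF libraries also hold more of the fibroblast markers than any pluripotent library, as given above. The feeders of the pluripotent cells are MEFs themselves. The summed share of the family in MEFs (at most 0.0598%) was below that of every pluripotent library.

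More rows of the family were called higher than lower in the reprogrammed cells against ESCs. For the mean of the 3 reprogrammed kinds against ESCs, 47 of 73 rows were higher, 7 were lower and 19 did not pass, where 82% of all tested miRNAs were called, 44% higher and 38% lower. The median difference was 1.48 over the family and 0.24 over all tested miRNAs. By number, miR-467 was higher in 10 of 10 rows, miR-669 in 24 of 29, miR-297 in 3 of 6 and miR-466 in 10 of 28, with medians of 3.40, 2.94, 3.10 and 0.28. The 3 higher rows of miR-297 hold 1 set of identical values (6.33), and the median of 3.10 counts that set 3 times. The other rows of miR-297 differed by -0.13 (miR-297b-5p), -1.19 (miR-297c-5p) and -1.87 (miR-297a-5p). Identical rows counted as 1, the counts over the family were 41 higher and 7 lower of 65. Some rows were tested only because of their reads in reprogrammed cells and had to differ. Of the 51 rows that reached 10 reads in 2 or more ESC libraries, 27 were higher and 7 were lower, with a median of 0.72. The pluripotent markers were at 10.2% to 12.2% of the miRNA reads in ESCs and at 13.5% to 20.8% in the reprogrammed libraries, and the fibroblast markers at 5.43% to 6.27% and 1.52% to 4.32%. The part of either list in these differences was not tested.

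miR-669c-5p differed by 4.18 (SE 0.144, limma adjusted p = 2.37e-10), and the ratio of its normalized reads in reprogrammed cells to ESCs was 18.8. miR-669a-3p had 277.4, 264.3 and 266.4 normalized reads in ESCs, 5135 and 4176 in iPSCs, 3854 and 3795 in NT-ESCs, and 1827 and 1615 in NT-iPSCs. Its ESC values were close to each other, and each reprogrammed library was above them. The difference was 3.53 (SE 0.112, limma adjusted p = 1.27e-10). miR-297a-3p had 20.3, 17.0 and 20.6 normalized reads in ESCs, 2139 and 2236 in iPSCs, 1953 and 2104 in NT-ESCs, and 1004 and 862.6 in NT-iPSCs. This row was near the limit of counting in ESCs and among the well-covered rows in every reprogrammed library, with a difference of 6.33 (SE 0.200, limma adjusted p = 1.27e-10) and a ratio of 88.9. miR-467a-3p, whose values are within 5% of those of miR-467d-3p, had 75.6, 103.1 and 107.2 normalized reads in ESCs, 7227 and 6831 in iPSCs, 4555 and 5023 in NT-ESCs, and 2223 and 2330 in NT-iPSCs. Its difference was 5.48 (SE 0.320, limma adjusted p = 1.81e-08), with no overlap.

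The 7 rows that were lower in reprogrammed cells were miR-297a-5p, miR-297c-5p, miR-466h-5p, miR-466n-3p, miR-669b-5p, miR-669f-5p and miR-669m-5p, all but miR-466n-3p from the 5p arm. miR-466n-3p had 433.0, 650.6 and 841.6 normalized reads in ESCs, 99.8 and 74.0 in iPSCs, 136.5 and 140.0 in NT-ESCs, and 39.2 and 59.6 in NT-iPSCs. Its levels in reprogrammed cells lay around those of MEFs, at 77.4, 61.0 and 55.4, and it was the row that was not called between reprogrammed cells and MEFs. Against ESCs the difference was -2.88 (SE 0.235, limma adjusted p = 3.57e-07). miR-466h-5p had 289.8, 296.3 and 192.8 normalized reads in ESCs and 31.5 to 117.5 in the 6 reprogrammed libraries, a difference of -1.93 (SE 0.251, limma adjusted p = 2.26e-05). miR-297a-5p had 879.5, 852.8 and 1115 in ESCs and 151.5 to 344.6 in the reprogrammed libraries, a difference of -1.87 (SE 0.142, limma adjusted p = 2.03e-07). In each of these 3 rows no reprogrammed library reached the lowest ESC library. The other 5p rows of this kind changed less. miR-669b-5p had 235.7, 231.2 and 244.8 normalized reads in ESCs and 47.4 to 208.5 in the reprogrammed libraries, a difference of -1.28 (SE 0.229, limma adjusted p = 0.000304). miR-669m-5p had 263.9, 255.2 and 264.3 normalized reads in ESCs and 58.8 to 241.5 in the reprogrammed libraries, a difference of -1.13 (SE 0.215, limma adjusted p = 0.000476). miR-297c-5p had 129.7, 122.1 and 144.1 normalized reads in ESCs and 22.4 to 115.0 in the reprogrammed libraries, a difference of -1.19 (SE 0.255, limma adjusted p = 0.00113).

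miR-466e-3p was among the most abundant 3p rows of miR-466. It had 1900, 1381 and 1486 normalized reads in ESCs, 2811 and 2369 in iPSCs, 2197 and 2368 in NT-ESCs, and 1067 and 1214 in NT-iPSCs. The mean of the reprogrammed kinds differed from ESCs by 0.26 (SE 0.151, limma adjusted p = 0.134), with iPSCs 0.71 and NT-ESCs 0.53 higher than ESCs and NT-iPSCs 0.47 lower. All 3 passed the threshold, but the call in NT-iPSCs was lost under 9 alternatives, that in NT-ESCs under 5 and that in iPSCs under 1. miR-466b-3p and miR-466p-3p had values within 5% of these and may count the same reads. miR-466a-3p differed from ESCs by -0.44 in NT-iPSCs, which did not pass (limma adjusted p = 0.0650). miR-467d-5p had 1525, 1311 and 1213 in ESCs, 3069 and 3480 in iPSCs, 2182 and 3173 in NT-ESCs, and 972.2 and 1484 in NT-iPSCs, so that only the NT-iPSCs overlapped with ESCs. The mean of the reprogrammed kinds was 0.70 higher than in ESCs for this row (SE 0.167, limma adjusted p = 0.00231).

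**Figure D2:**
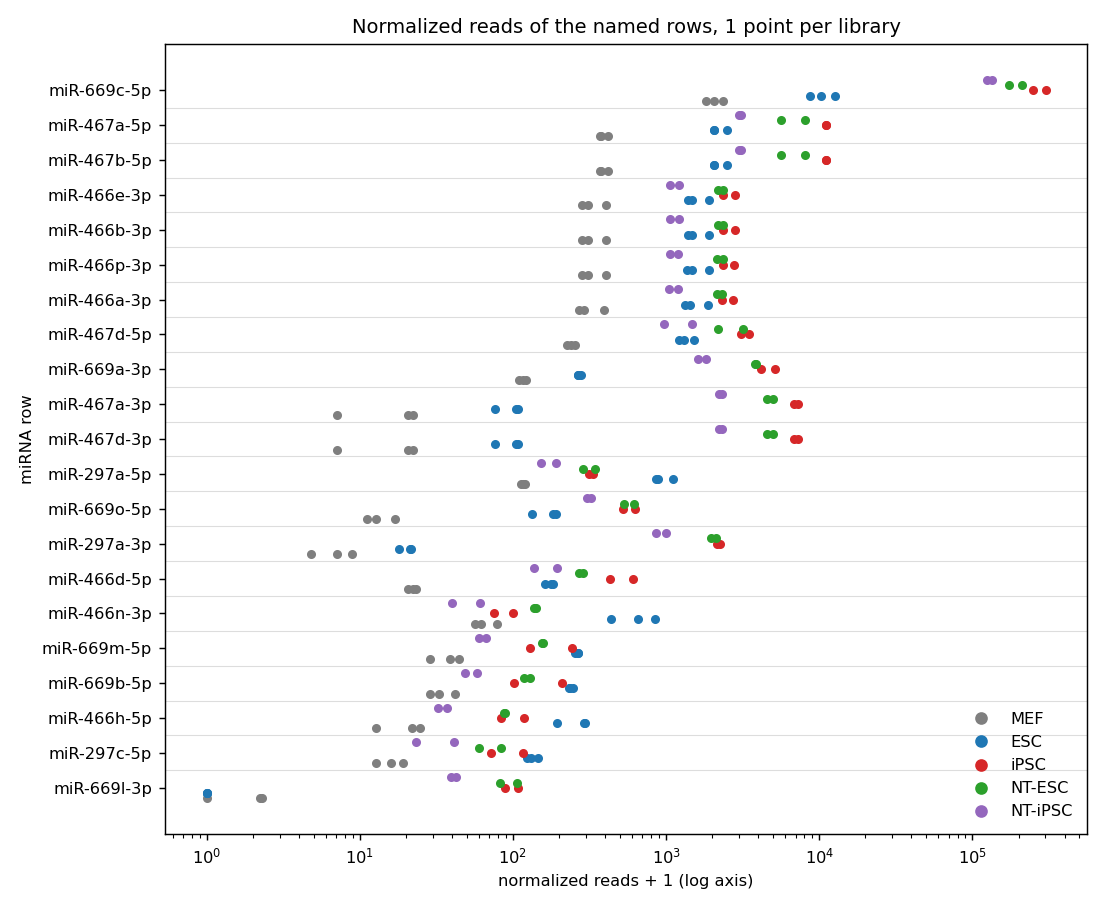
Normalized reads plus 1 (log axis) of the 21 named rows, 1 point per library, colored by cell type. For miR-669c-5p the groups form separate steps from 1827 to 300079 reads, for miR-297a-3p the 6 reprogrammed libraries lie far above the ESC and MEF libraries, and for miR-466n-3p the 3 ESC libraries lie highest.

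Against ESCs, the 3 reprogrammed kinds gave different counts. iPSCs were higher in 54 of 73 rows and lower in 4, where 75.8% of all tested miRNAs were called, 39.8% higher and 36.1% lower. NT-ESCs were higher in 52 and lower in 6, where the share of all tested miRNAs called was also 75.8%, with 39.8% higher and 36.1% lower. NT-iPSCs were higher in 38 and lower in 19, where 77.6% were called, 41.1% higher and 36.5% lower. With upper quartile scaling NT-iPSCs were higher in 38 rows and lower in 10. The number of lower rows was 12 without ESC 4, 10 without NT-iPSC 51 and 9 without NT-iPSC 52. For NT-ESCs, upper quartile scaling left 3 lower rows. Among the 51 rows with enough reads in ESCs, 33 were higher and 4 lower in iPSCs, 32 and 6 in NT-ESCs, and 19 and 18 in NT-iPSCs, with medians of 1.16, 0.96 and -0.09. Over all 73 rows the median differences were 2.34, 1.78 and 0.90, against 0.22, 0.25 and 0.12 over all tested miRNAs. The 4 rows lower in iPSCs were miR-297a-5p, miR-466h-5p, miR-466n-3p and miR-669b-5p. Of these 4, miR-669b-5p lost its call in iPSCs (limma adjusted p = 0.0469) under 13 alternatives, and its difference of -0.71 is below a minimum of 1. The rows lower in NT-iPSCs were mostly of miR-466, with 12 of its 28 tested rows lower and 7 higher.

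Against MEFs, reprogrammed cells were higher in 72 of the 73 rows, where 88.9% of all tested miRNAs were called, 48.5% higher and 40.4% lower. The median difference was 4.40 over the family and 0.40 over all tested miRNAs. The exception was miR-466n-3p, with a difference of 0.38 (limma adjusted p = 0.150). Many rows were at or near 0 reads in MEFs, where a difference on this scale depends on the transformation. Of the 33 rows that reached 10 reads in 2 or more MEF libraries, 32 were higher and 0 were lower by limma, with a median of 3.44. miR-669c-5p differed by 6.52 (SE 0.144, limma adjusted p = 4.24e-12), with a ratio of normalized reads of 95.8. miR-297a-3p had only 3 to 6 reads in the MEF libraries, so that no test against MEFs is given for it. miR-669a-3p had 108.9, 116.0 and 120.9 normalized reads in MEFs and differed by 4.75 (SE 0.112, limma adjusted p = 7.16e-12).

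The rows with printed sequences, picked out for having one and not by their values, covered a wide range of responses. miR-466i-3p, all of whose annotated copies lie outside Sfmbt2, had 0 reads in every MEF library, 5.64, 2.00 and 2.17 normalized reads in ESCs, 397.2 and 349.4 in iPSCs, 226.5 and 253.7 in NT-ESCs, and 143.1 and 290.6 in NT-iPSCs. Reprogrammed cells were thus at least 70.3-fold higher than MEFs, taking 3 reads per library as the floor. With 2 to 5 reads in the ESC libraries, no test against ESCs is given. Its 22 bases are made only of A, U and C. miR-466k, whose seed GUGUGUG is the alternating UG form, had 5.25, 4.88 and 3.78 normalized reads in MEFs, 69.9, 64.1 and 49.8 in ESCs, 138.8 and 86.4 in iPSCs, at most 52.5 in both NT-ESC libraries, and 36.8 and 17.4 in NT-iPSCs. Its MEF libraries held 3 to 4 reads, so that no test against MEFs is given. The mean of the reprogrammed kinds differed from ESCs by -0.20 (SE 0.275, limma adjusted p = 0.510). miR-669n had no read in MEFs, at most 2.17 normalized reads in ESCs, and 4.16 to 13.2 in the reprogrammed libraries.

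The arms of a hairpin often changed differently between reprogrammed cells and ESCs. Of the 35 tested 3p rows, 26 were higher than in ESCs and 1 was lower, beside 46.1% higher and 35.7% lower of all tested 3p rows. The median was 4.41, but 17 of them did not reach 10 reads in 2 ESC libraries, and the row at the median, miR-467b-3p, had 0 reads in every ESC library. The 18 that did had 10 higher and 1 lower, with a median of 1.77. Among these 18, miR-297a-3p, miR-297b-3p and miR-297c-3p hold identical values (6.33). The same is so of miR-669a-3p and miR-669o-3p (3.53), and of miR-466b-3p and miR-466c-3p. With identical rows counted once, the median of the covered 3p rows fell between 0.28 (miR-466a-3p) and 0.84 (miR-669f-3p). Of the 32 tested 5p rows, 17 were higher and 6 were lower, beside 40.2% higher and 43.4% lower of all tested 5p rows. The median was 0.71, and of the 30 with enough reads in ESCs 16 were higher and 6 lower, with a median of 0.71. The medians over all tested miRNAs were 0.29 for 3p rows and -0.06 for 5p rows. To test the arms against each other, the difference between the 3p and 5p log2 values was taken in each library for the 263 hairpin names with both arms tested, 32 of them in the family, and compared between groups with limma in the same way. This test was chosen after the data were seen.

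Between reprogrammed cells and ESCs, the 3p arm gained on the 5p arm in 21 of the 32 hairpin names of the family and lost in 4. Over all 263 names, 79.5% were called, 44.5% with a gain of the 3p arm and 35% with a loss. The median change was 2.95 in the family and 0.36 over all names. Several of the 21 gains had few or no 3p reads in ESCs, and some names share the row of an arm. Of the 17 names with both arms at 10 reads in 2 or more ESC libraries, 10 gained and 3 lost, with a median of 1.52, and with names that share a row counted once these numbers were 6 and 1 of 9. A changed arm difference was thus found in most hairpins of the table, in both directions. miR-297a changed most clearly: the 3p arm held 2.26%, 1.96% and 1.81% of the normalized reads of its 2 arms in ESCs, 6.25%, 5.05% and 3.26% in MEFs, and 84.1% to 87.3% in the 6 reprogrammed libraries. The change against ESCs was 8.20 (SE 0.221, limma adjusted p = 6.53e-10). The 3p row of miR-297a is identical to those of miR-297b and miR-297c. Its percentages thus set reads that 3 names may share against the 5p reads of miR-297a alone, and are not shares of a single hairpin. In MEFs they rest on 3 to 6 reads of the 3p row. For miR-466h, named here after its values were seen as the largest change, the 3p arm held 1.53% to 3.27% in ESCs and 88.8% to 92.8% in the reprogrammed libraries. These shares are given as a description, with no test, since the 3p row had only 4.51, 10.0 and 5.42 normalized reads in ESCs. It had 285.3 to 1051 in the reprogrammed libraries.

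The opposite change was found in miR-466n, miR-669e, miR-466c and miR-466d. The 5p row of miR-669e had only 7 to 9 reads in the ESC libraries. The 3p row of miR-466c is identical to that of miR-466b, which was not called (0.36, limma adjusted p = 0.321). miR-466d was not called in NT-ESCs (limma adjusted p = 0.150) or NT-iPSCs (limma adjusted p = 0.0620) taken alone. In miR-466n the 3p arm held 71.1%, 78.2% and 83.9% in ESCs, 72.1% to 77.6% in MEFs and 10.9% to 34.1% in the reprogrammed libraries, with a change of -3.60 (SE 0.337, limma adjusted p = 3.70e-06). Since miR-466n-5p and miR-466d-5p are the same values, these arms are not separate measurements. In miR-669c, whose 5p row reached the highest level, the 3p arm held at most 0.07% in any library. With 0 or 1 read of the 3p row in each MEF and ESC library, no test of its arms is given.

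**Figure D3:**
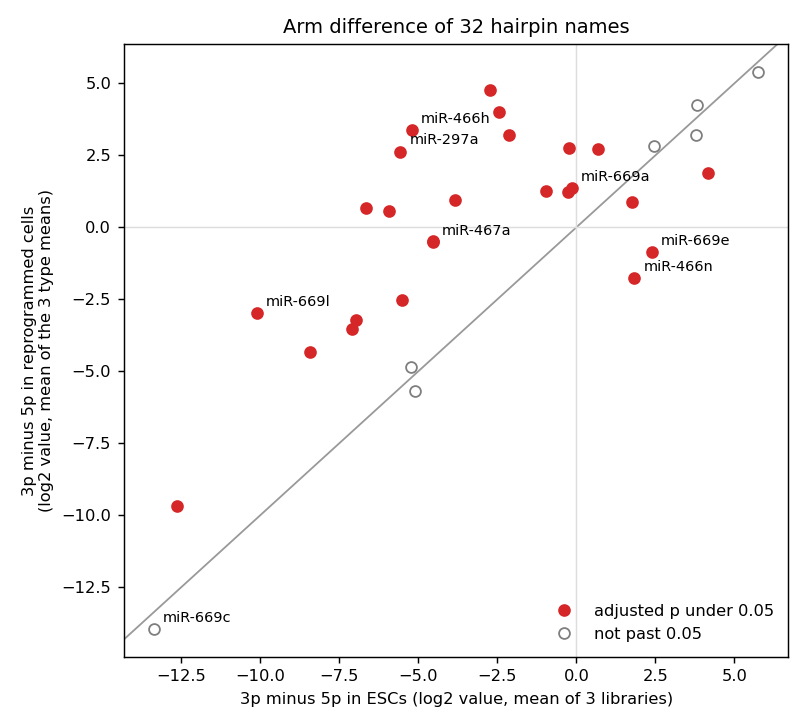
Difference between the 3p and the 5p log2 value of 32 hairpin names, in ESCs (horizontal, mean of 3 libraries) and in reprogrammed cells (vertical, mean of the 3 type means), with the line of equal values. Filled red points passed an adjusted p of 0.05, and 21 of these 25 lie above the line, with miR-466h and miR-297a crossing from below to above 0 and miR-466n and miR-669e crossing the other way.

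Between MEFs and ESCs, the 3p arm was relatively higher in MEFs in 11 of the 32 names and lower in 0 by limma, where 23.6% of all 263 names were called, 11.8% in each direction. Of the 8 names with both arms at 10 reads in 2 or more MEF libraries, 2 were called, both with a relatively higher 3p arm. Between reprogrammed cells and MEFs the 3p arm gained in 16 names and lost in 8, where 77.6% of all names were called, 43.7% with a gain and 33.8% with a loss. Among the 8 names with enough MEF reads, 3 gained and 3 lost. For iPSCs against ESCs the numbers were 21 and 4, beside 74.9% of all names called, 43% with a gain and 31.9% with a loss. For NT-ESCs against ESCs they were 21 and 3, beside 73.8%, 42.2% and 31.6%. For NT-iPSCs against ESCs they were 20 and 3, beside 73.4%, 41.4% and 31.9%. Of the 17 names with enough ESC reads in both arms, 10 gained and 3 lost in iPSCs, 10 and 2 in NT-ESCs, and 9 and 2 in NT-iPSCs. Several of the calls between MEFs and ESCs rest on 3p rows with few or no reads in both kinds of cells, such as miR-467b and miR-669k, whose 3p rows did not pass the test while their 5p rows were lower. Among the reprogrammed kinds, 0 of the 32 names were called in any of the 3 comparisons by limma, and none when normalized reads plus a pseudocount of 1 were used on the log2 scale. One name of all 263 was called (0.38%), between NT-iPSCs and NT-ESCs. In ESCs the 5p arm was higher in every library for 20 of the 32 names and the 3p arm for 9, and in MEFs these numbers were 16 and 11. In iPSCs they were 12 and 18, and in both NT-ESCs and NT-iPSCs 13 and 19. Over all 263 names they were 125 and 100 in MEFs, 136 and 110 in ESCs, 129 and 121 in iPSCs, 131 and 124 in NT-ESCs, and 131 and 122 in NT-iPSCs. Names with few 3p reads in MEFs or ESCs are counted here too.

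NT-iPSCs were lower than the other reprogrammed kinds in many rows of the family. By summed share, the ratio of iPSCs to NT-ESCs was 1.81 and that of NT-ESCs to NT-iPSCs 1.80. Between NT-iPSCs and iPSCs, 47 of 73 rows were lower, 0 were higher by limma and 26 did not pass, where 26.5% of all tested miRNAs were called, 13.1% lower and 13.4% higher. The median difference was -1.25 over the family and 0.00 over all tested miRNAs. Values of 71 of the 73 rows were lower on average in NT-iPSCs, the others being miR-466i-5p and miR-669c-3p. The lower rows came from both arms, with 26 of 32 5p rows and 20 of 35 3p rows, beside 14.7% and 12.7% of all 5p and 3p rows. All 6 rows of miR-297, 17 of 28 of miR-466, 9 of 10 of miR-467 and 15 of 29 of miR-669 were lower, with the 3p rows of miR-297 being identical. Over the family, 40 of 65 rows were lower with identical rows counted once, and 36 of 61 with rows within 5% counted once. Of the 4 tested rows with hairpins only outside Sfmbt2, miR-466k was lower and the other 3 did not pass.

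The clearest differences were in miR-467a-5p and miR-669a-3p. miR-467a-5p had 11075 and 11115 normalized reads in iPSCs, 5641 and 8074 in NT-ESCs, and 2993 and 3099 in NT-iPSCs. Its 2 iPSC libraries were almost equal, and so were its 2 NT-iPSC libraries. NT-iPSCs were 1.87 lower than iPSCs (SE 0.185, limma adjusted p = 5.1e-05). For miR-669a-3p, given above, the difference was -1.43 (SE 0.158, limma adjusted p = 9.1e-05), and for miR-669c-5p it was -1.08 (SE 0.204, limma adjusted p = 0.00279). With iPSC 62, iPSC 63, NT-iPSC 51 or NT-iPSC 52 left out, 32, 37, 36 and 30 rows were called, all of them lower, with the lone library of a kind taken to vary like the other groups. The summed fibroblast markers were at 1.52% to 1.68% in iPSCs and at 3.69% to 4.32% in NT-iPSCs. The pluripotent markers were at 16.6% to 20.8% in iPSCs, 19.6% in both NT-ESC libraries and 13.5% to 14.4% in NT-iPSCs. The part of either list in the result was not tested.

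Between NT-iPSCs and NT-ESCs, 31 of 73 rows were lower and 0 were higher by limma, where 12.8% of all tested miRNAs were called, 7.24% lower and 5.6% higher. The median difference was -1.07, against 0.08 over all tested miRNAs. miR-669a-3p differed by -1.15 (SE 0.158, limma adjusted p = 0.00411), and miR-467a-5p by -1.15 (SE 0.185, limma adjusted p = 0.00561). miR-669c-5p differed by -0.57 (SE 0.204), which did not pass (limma adjusted p = 0.0908). This count depended on each of the 4 libraries: 5 rows were called without NT-ESC 71, 2 without NT-ESC 72, 6 without NT-iPSC 51 and 14 without NT-iPSC 52, all of them lower.

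Between NT-ESCs and iPSCs few rows were called. By limma 4 rows were lower in NT-ESCs (miR-467a-5p, miR-467b-5p, miR-466d-5p and its identical row miR-466n-5p) and 0 were higher, where 25.7% of all tested miRNAs were called, 13.1% lower and 12.6% higher. The median difference was -0.21, against -0.10 over all tested miRNAs. miR-467a-5p differed by -0.72 (SE 0.185, limma adjusted p = 0.0165), and miR-466d-5p, with 429.5 and 608.0 normalized reads in iPSCs and 284.0 and 270.3 in NT-ESCs, by -0.88 (SE 0.239, limma adjusted p = 0.0206). Without NT-ESC 71 no row was called, and without NT-ESC 72, iPSC 62 or iPSC 63 there were 2.

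**Figure D4:**
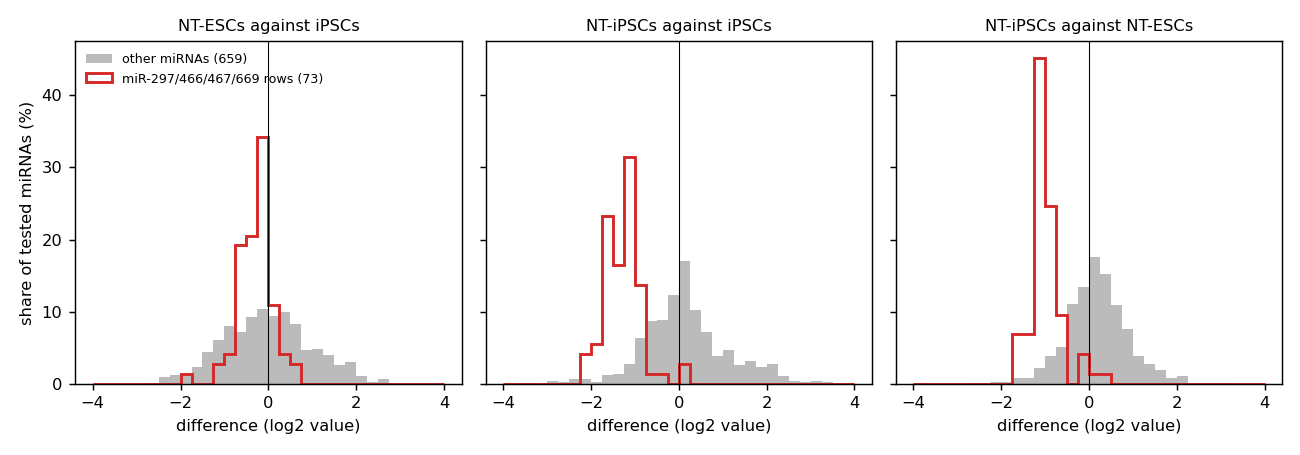
Distribution of differences (log2 value) between the reprogrammed kinds, for the 73 tested rows of the family (red outline) and the 659 other tested miRNAs (gray), as a share of each set. The family centers at -0.21 between NT-ESCs and iPSCs, at -1.25 between NT-iPSCs and iPSCs and at -1.07 between NT-iPSCs and NT-ESCs, while the other miRNAs spread around 0.

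Other clusters are given by their counts, with no test against the family. The miR-290 cluster, the main miRNA cluster of mouse ESCs, had 2 of 14 tested rows higher and 1 lower between NT-iPSCs and iPSCs, with a median of 0.18, and 0 called by limma between NT-iPSCs and NT-ESCs. The X-linked cluster with miR-465, miR-743 and miR-880 had 0 of 27 called by limma between NT-iPSCs and iPSCs, with a median of 0.22, and 5 of 27 between NT-iPSCs and NT-ESCs, all of them higher, with a median of 1.35. The Mirg side of the imprinted Dlk1-Dio3 region had 6 of 63 lower between NT-iPSCs and iPSCs (median -0.34) and 14 of 63 higher between NT-iPSCs and NT-ESCs (median 0.60). Between reprogrammed cells and ESCs the medians of these lists were 1.19, -2.90 and 0.89, and between MEFs and ESCs -13.7, -8.32 and 0.99.

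The rows were also described by the position of their hairpins. Of the tested rows, 52 have a name with a single annotated hairpin, and that one in Sfmbt2. Where rows had 10 reads in 2 or more ESC libraries, the median difference between reprogrammed cells and ESCs on the 3p arm was 0.55 before the midpoint of the cluster (4 rows) and 1.91 after it (8 rows), and on the 5p arm it was 0.57 (9 rows) and 0.71 (12 rows). The 3p medians rest on few rows, which spread from -0.33 to 2.70 before the midpoint and from -2.88 to 6.33 after it. After the midpoint, miR-297b-3p and miR-297c-3p hold identical values (6.33). Counted once, they leave miR-466a-3p, at 0.28, as the middle row there. miR-669o-3p and miR-467d-3p share their values, wholly or within 5%, with miR-669a-3p and miR-467a-3p, whose copies lie on both sides. The same is so of miR-466e-3p before the midpoint and miR-466p-3p after it, so that position and level cannot be tied together here. Between NT-iPSCs and iPSCs, over all of these rows named for an arm, the medians were -1.49 and -1.23 on the 3p arm, and -1.46 and -1.41 on the 5p arm. Mir669c, the hairpin of the most abundant row, lies at chr2:10509296-10509404, in the stretch after the midpoint. Its neighborhood also holds Mir466n and Mir466h, at chr2:10513741-10513834 and chr2:10514891-10514971, whose rows are given above.

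**Figure D5:**
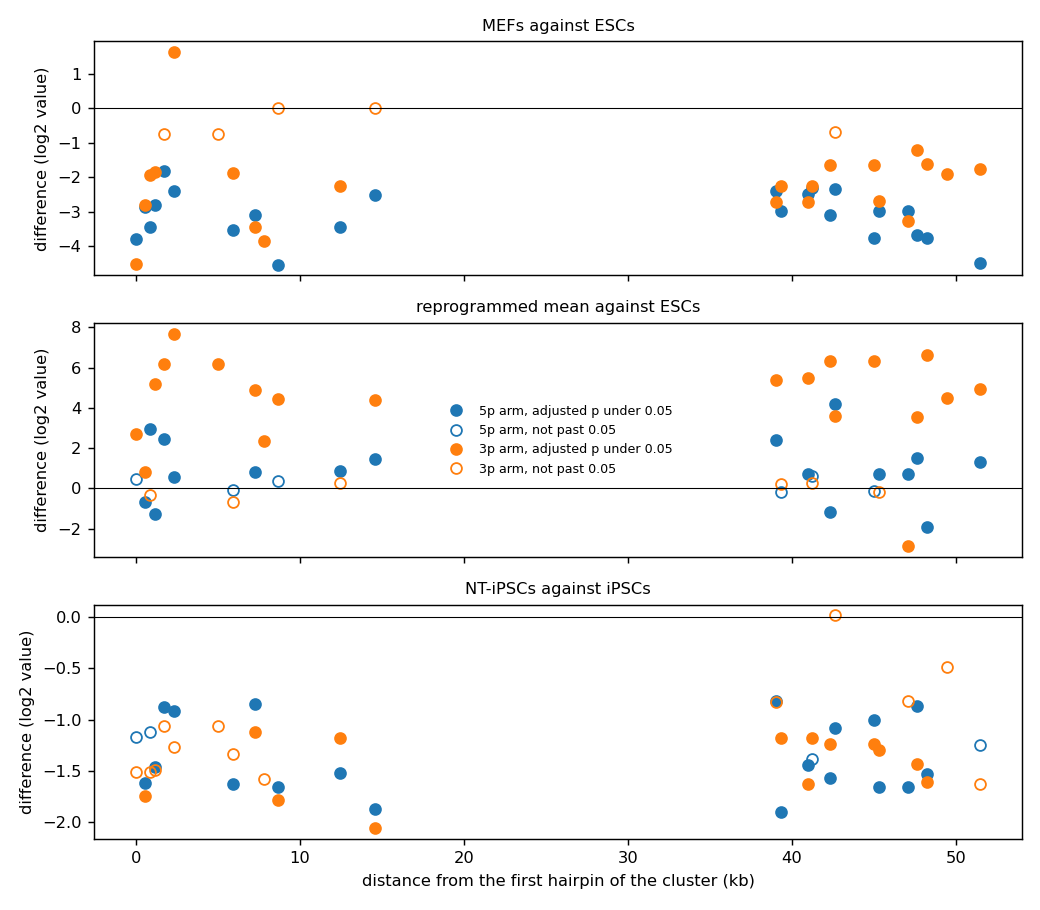
Difference (log2 value) of rows with a single annotated hairpin against the distance of the hairpin from the first of the cluster (kb), by arm, for MEFs against ESCs, reprogrammed cells against ESCs and NT-iPSCs against iPSCs. In the middle panel many 3p rows lie above the 5p rows on both sides of the midpoint, while others, such as miR-466n-3p, lie among or below them, and nearly all rows lie below 0 in the lower panel. Many of the high 3p rows had few or no reads in ESCs. Before the midpoint, rows with 10 reads in 2 or more ESC libraries had medians of 0.55 (3p) and 0.57 (5p) in the middle panel. The empty stretch is filled by repeated copies that share a name.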

How the data were processed

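Small RNA of 18 to 30 nt from 12 libraries was sequenced. According to the study's methods, the authors filtered the raw tags to clean reads and counted those on miRNAs, and the deposited values come from the variance stabilizing transformation of DESeq after its normalization. The deposited values are on this log2 scale. The labels name the build mm8, and no version, miRBase release or rule for reads that fit several miRNAs is given in the sources used here.

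The transformation was inverted to recover reads. Of the nonzero values 99.8% were whole within 0.05 read, and the size factors were 0.992 to 1.006 times those of a median of ratios. No count model was fitted, since the deposited values are not counts, and voom on the recovered reads served as an alternative. Comparisons used limma 3.58.1 in R 4.3.3 on the deposited log2 values: 5 group means were fitted over all 12 libraries, variances were moderated by eBayes with trend, and p-values were adjusted by Benjamini-Hochberg over the 732 miRNAs that reached 10 reads in 2 or more libraries. A floor of 3 reads stands for a CPM of 0.348 to 0.617. Libraries of 1 kind differed beyond sampling noise (chi-square per degree of freedom 46.4 to 350), so that none was counted as a duplicate. The steps were tested on simulated data. Tables and plots came from Python 3.11.15 (pandas 2.3.3, numpy 2.4.6, matplotlib 3.10.9).

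The members and lists were chosen with earlier results of these data known. Rows named with values were the 8 with the highest mean, up to 3 called rows a direction by p-value in each of 9 comparisons, if their groups did not overlap, up to 5 called rows against the majority of a comparison, and those in the study's lists of 50. The highest row of each seed shared by at least 3 members was also planned, but no seed could be seen to be shared. Rows with a printed sequence and miR-466h were added. Alternatives were upper quartile scaling, TMM-type scaling (30% trim on ratios, 5% on abundance), clean reads as library size, a log2 scale of normalized reads plus a pseudocount of 1, no filter, a minimum of 100 reads throughout a group, identical rows counted once, only the groups compared, a difference of at least 1, and each library left out. The arm test, the merging of rows within 5%, and the restriction to rows or arms with at least 10 reads in 2 or more ESC (or MEF) libraries were chosen after seeing the data.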

Additional observations from a re-analysis of the deposited data

Results flagged for a closer look

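For 5 rows the difference from ESCs was called in opposite directions in iPSCs and in NT-iPSCs, and the difference between these kinds of cells was itself past the threshold by limma. miR-466b-3p was 0.71 higher in iPSCs and 0.47 lower in NT-iPSCs than in ESCs, and NT-iPSCs differed from iPSCs by -1.18 (limma adjusted p = 0.00229). miR-466e-3p (-1.18) and miR-466p-3p (-1.18) had values within 5% of it and may count the same reads, and miR-466c-3p has identical values to miR-466b-3p, so that these rows cannot be taken as separate observations. The fifth row was miR-466k. It was 0.85 higher in iPSCs (limma adjusted p = 0.0488) and 1.24 lower in NT-iPSCs (limma adjusted p = 0.00803), and NT-iPSCs differed from iPSCs by -2.08 (limma adjusted p = 0.00275), on 21 and 45 reads in the NT-iPSC libraries. The calls of the 3p rows against ESCs in NT-iPSCs lay close to the threshold (limma adjusted p = 0.0409 to 0.0469) and were lost under 7 to 9 alternatives.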

How the results depend on the processing

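No paired analysis was possible because the replicate numbers are not shared between groups. Of 3969 alternative values of single named differences, 3738 kept direction and side of the threshold, 178 lost the call, 53 gained it and 0 reversed. Other scalings moved the median of all tested miRNAs by -0.48 to 0.63 between MEFs and ESCs and by -0.15 to 0.21 between reprogrammed cells and ESCs. Under these scalings the medians of the family, its 4 numbers and both arms kept their sign, except the 5p rows of NT-iPSCs against ESCs (-0.09, and 0.15 with upper quartile scaling). With identical rows counted once, the median of miR-297 turned negative for reprogrammed cells against ESCs. Its 3 higher rows hold a single set of values.

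Total counts of called rows stayed within 1.5 times the reported ones except in the following. NT-ESCs against iPSCs (4) gave 8 with voom, 2 with only the groups compared, 0 with a difference of at least 1, and 0 to 5 with a library left out. NT-iPSCs against NT-ESCs (31) gave 55 with voom, 19 with a difference of at least 1, and 2 to 37 with a library left out. NT-iPSCs against iPSCs (47) gave 30 to 50 with a library left out. Only rows with 10 reads in 2 or more ESC libraries gave 34 for the reprogrammed mean, 37 for iPSCs, 38 for NT-ESCs and 37 for NT-iPSCs, all against ESCs, and 13 arm differences for the reprogrammed mean (7 with shared rows once), 13 for iPSCs, 12 for NT-ESCs and 11 for NT-iPSCs. With MEF libraries in place of ESCs, MEFs against ESCs gave 33 rows and 2 arm differences, and the reprogrammed mean against MEFs 32 and 6. These restrictions leave fewer rows. Of counts in 1 direction, the 19 rows lower in NT-iPSCs than in ESCs became 9 to 12 without ESC 4, NT-iPSC 51 or NT-iPSC 52, 10 with upper quartile scaling and 11 with a difference of at least 1, and the 6 lower in NT-ESCs became 3 under the last 2 settings. The arm test of MEFs against ESCs (11) gave 17 when normalized reads plus a pseudocount of 1 were used. With clean reads as the total, the mean share was 3.68% for iPSCs, 2.27% for NT-ESCs, 1.35% for NT-iPSCs, 0.289% for ESCs and 0.0415% for MEFs. With rows within 5% counted once it was 0.0434% in MEFs and 0.454% in ESCs. The cause of the other changes was not tested. Rows at or under 3 reads in MEFs and ESCs limit what can be seen there.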
